A study of Homo sapiens with 24 samples.

Results

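The genes described here encode subunits of the Mediator complex and of the SWI/SNF chromatin remodelling complexes, and the rule that defines them reads only gene symbols, although it was set with earlier results of these data known. The rule took symbols made of MED and a number (with an optional L), symbols that start with SMARC, and a short list of named partners such as CCNC, CDK8, CDK19, ARID1A, ARID1B, ARID2, PBRM1, BRD7, BRD9 and SS18. It found 60 of the 15862 genes in the deposited table. Of these, 33 encode Mediator subunits, 23 encode SWI/SNF subunits, and 4 (SMARCA1, SMARCA5, SMARCAD1 and SMARCAL1) carry a SMARC symbol but belong to other branches of the SNF2 helicase-like family.

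RNA sequencing measured them in LOUCY and JURKAT, established human leukaemia lines of T-cell origin that are each a single line and not a panel of patients. Untreated LOUCY and untreated JURKAT had 6 libraries each. LOUCY cells in the 3 other groups (n = 4 each) were cultured for 24 h with a vehicle of 0.05% DMSO, with JQ1 at 250 nM or with I-BET151 at 500 nM, and no treated JURKAT was analysed here. JQ1 and I-BET151 are chemically unlike inhibitors that occupy the acetyl-lysine pockets of BET proteins. Each group was split evenly over 2 experiments, and the design asks how the untreated lines differ and what BET inhibition changes in LOUCY.

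Mediator is a large bridge between transcription factors bound to enhancers and RNA polymerase II at promoters. Its head and middle modules contact the polymerase, MED14 joins the modules as a backbone, and the tail contacts activators. A kinase module, made of CDK8 or CDK19 with cyclin C (CCNC), MED12 or MED12L and MED13 or MED13L, docks reversibly and blocks polymerase binding while docked. SWI/SNF complexes use the ATPases SMARCA4 or SMARCA2 to slide and evict nucleosomes. They are assembled around SMARCC and SMARCD core subunits into canonical BAF (with ARID1A or ARID1B), PBAF (with ARID2 and PBRM1) and non-canonical BAF (with BRD9) forms. BET proteins and Mediator occupy many of the same enhancers, which is the background for following these genes under JQ1 and I-BET151.

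Levels are the authors' RPKM, reads scaled to gene length and library size, so they are relative amounts within a library. A difference in total RNA per cell, or in the mixture of cells within a culture, cannot be told apart from a difference in these values. Each library had between 4381134 and 7074198 reads over the table, and a member gene had a median of 327 reads per library. The T-cell genes CD3D, CD3E, CD3G, CD7 and LCK were at means of 9.78 RPKM or more in both untreated lines, while CD2 and CD5 averaged 0.0562 and 0.305 RPKM in LOUCY. Of the listed markers of other lineages, 1 B-lineage, 1 myeloid and 1 non-haematopoietic gene were expressed enough to be tested between the lines. They were higher in LOUCY than in JURKAT by 4.7, 2.314 and 1.235 on the log2 scale. A group of 3 libraries fell steeply with gene GC content, relative to the mean of their own group. They were I-BET151 replicate 1, DMSO replicate 1 and untreated LOUCY replicate 2, all of experiment 2. Their slopes were -0.332, -0.303 and -0.238 log2 units per 10 percentage points of GC, against -0.132 to 0.167 in the others. Each slope is of deviations from the group mean, so a steep library also shifts the slopes of the others in its group. Among the 4 I-BET151 libraries, the steep one was the highest for 23 members and the lowest for 30. Among the 4 DMSO libraries, the steep one was the highest for 20 members and the lowest for 32. The same counts over all genes are not given here, so these are not read as particular to the members.

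Most members were well expressed in every group. In untreated LOUCY, 41 of the 60 averaged 10 RPKM or more, and 38 did so in untreated JURKAT. The median member stood at 15.3 RPKM in untreated LOUCY and 15.8 RPKM in untreated JURKAT, and at 15.2, 15.1 and 15.1 RPKM in LOUCY with DMSO, JQ1 and I-BET151. The core subunit SMARCE1, a DNA-binding HMG-box protein, reached 223.9 ± 31.8 RPKM (SD, n = 6) in LOUCY, and the actin-related subunit ACTL6A reached 183.2 ± 12.7. At the other end, the elongation-linked subunit MED26 was at 1.39 ± 0.271 RPKM in LOUCY and BCL7C at 1.68 ± 0.411. Only CCNC averaged under 1 RPKM in untreated LOUCY, and only BCL7C (0.714 ± 0.409) did so in untreated JURKAT.

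The untreated LOUCY and JURKAT libraries were set against each other to find the subunits that separate them. Differences are given as log2 of (RPKM + 1), LOUCY minus JURKAT, with the standard error (SE), and a gene counted as changed at a limma adjusted p under 0.05. Of the 60 members, 42 passed, 26 of them higher in LOUCY and 16 lower. This share, 70.0%, was close to the background, since 73.1% of all 11978 tested genes passed in this comparison (35.5% higher and 37.5% lower). The median difference was 0.13 over the members and -0.02 over all tested genes. SWI/SNF subunits passed mostly upward, with 12 higher and 4 lower of 23, and Mediator subunits passed in equal numbers, with 11 higher and 11 lower of 33. Within experiment 1 alone 36 of 59 members passed (background 61.5%), and within experiment 2 alone 27 of 58 (background 52.5%).

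**Figure D1:**
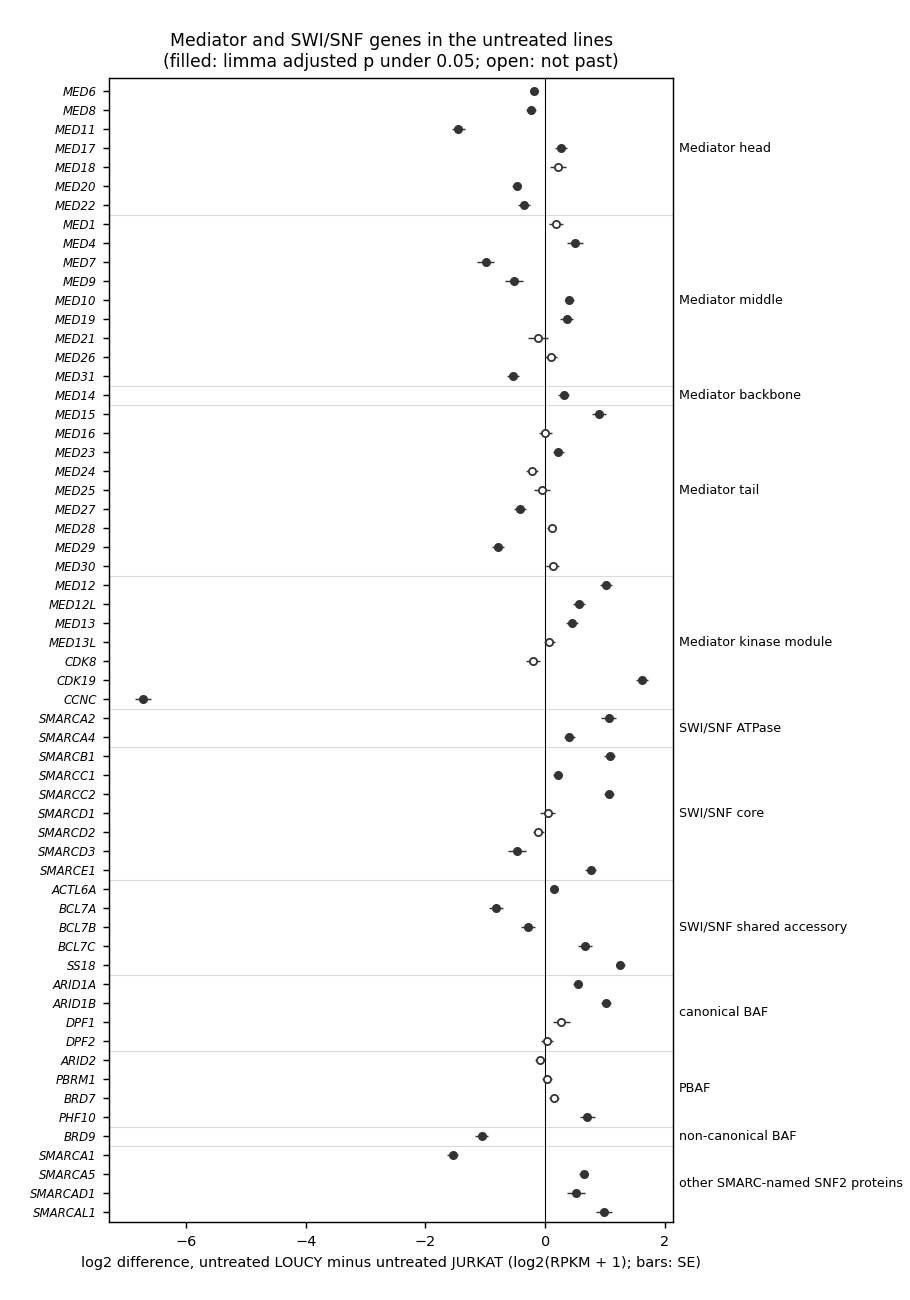
Differences of the 60 members between the untreated lines, grouped by module, as log2(RPKM + 1) in LOUCY minus JURKAT on the horizontal axis (n = 6 each). Points are estimates and bars their SE, filled where the limma adjusted p was under 0.05. CCNC lies alone at -6.72, and the remaining 59 members lie between -1.55 and 1.62.

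The kinase module held both extremes of the member list. CCNC encodes cyclin C, the activating partner of CDK8 and CDK19 (chromosome 6, 99542380 to 99568973, GRCh38). Its lowest, median and highest values were 0.0704, 0.262 and 0.667 RPKM over the 6 untreated LOUCY libraries, and 107.2, 134.8 and 164.1 RPKM over the 6 JURKAT libraries. The groups did not overlap. In reads, untreated LOUCY libraries held 1 to 7 reads of CCNC and JURKAT libraries 1225 to 2168. The log2 difference was -6.72 (SE 0.14, limma adjusted p = 1.44e-15), and the JURKAT mean was 445-fold the LOUCY mean. CCNC stayed low in all 18 LOUCY libraries, with 72 reads in all and a median of 3 per library. The most in any of them was 18 reads, or 1.34 RPKM, in I-BET151 replicate 1 of experiment 2, one of the libraries with a steep GC trend. CCNC fell below the expression filter in LOUCY, so the effect of the inhibitors on it was not tested.

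Genes next to CCNC on chromosome 6 were examined in RefSeq order. USP45, a deubiquitinase gene, averaged 0.153 ± 0.0827 RPKM in LOUCY and 5.36 ± 1.2 in JURKAT. The adjacent TSTD3 averaged 0.123 ± 0.122 RPKM in LOUCY and 2.97 ± 0.297 in JURKAT. On the far side, PRDM13 averaged 0.0938 ± 0.0351 RPKM in LOUCY and 1.33 ± 0.29 in JURKAT. These 3 neighbours were thus near 0 in the same line as CCNC, each with a limma adjusted p of 4.09e-08 or less. In RefSeq, TSTD3 spans the position of CCNC, although in GENCODE v29 the genes share no exon base. The annotation behind the counts is not given, so whether TSTD3 took reads of CCNC cannot be told. The next genes outward were expressed in LOUCY. PNISR, a splicing-related gene, averaged 49.2 ± 7.28 RPKM in LOUCY and 37.9 ± 4.97 in JURKAT, and ASCC3, a helicase gene, averaged 6.47 ± 0.554 and 8.26 ± 0.701 RPKM. MCHR2, which lies between PRDM13 and ASCC3, was under 1 RPKM in every library of both lines. Beyond PNISR, the coenzyme Q gene COQ3 was lower in LOUCY by 2.85 on the log2 scale (5.81 ± 1.29 against 47.5 ± 2.93 RPKM) without being near 0. DNA copy number was not measured, and its part in the low CCNC was not tested.

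**Figure D2:**
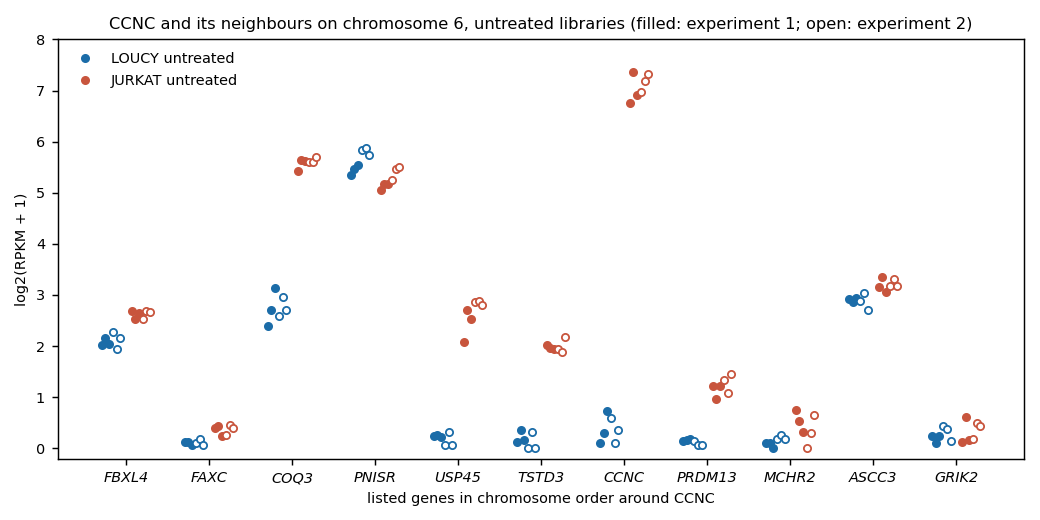
CCNC and its listed neighbours in chromosome order. The vertical axis is log2(RPKM + 1), with one point for each untreated library (blue LOUCY, red JURKAT, filled experiment 1, open experiment 2). USP45, TSTD3, CCNC and PRDM13 are near 0 in LOUCY and higher in JURKAT, and PNISR and ASCC3 on either side are expressed in both lines.

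The kinases that CCNC activates did not show such a loss. CDK19 ranged from 9.71 to 12.6 RPKM with a median of 10.98 in LOUCY, and from 2.22 to 3.54 with a median of 2.998 in JURKAT. All LOUCY libraries were above all JURKAT libraries, and the difference was 1.62 (SE 0.10, limma adjusted p = 5.87e-10), the largest difference upward among the members. CDK8 ranged from 5.24 to 8.67 RPKM in LOUCY and from 6.49 to 9.15 in JURKAT, with overlapping groups and a difference of -0.20 (SE 0.12, limma adjusted p = 0.134). CDK19 therefore made up 62.5% ± 3.28 of the summed RPKM of the pair in LOUCY and 27.6% ± 4.98 in JURKAT (SD, n = 6 each). The libraries ranged from 57.8% to 66.3% in LOUCY and from 19.5% to 32.9% in JURKAT, without overlap. This share stayed at 60.6% ± 3.25 with DMSO, 59.9% ± 5.58 with JQ1 and 62.6% ± 0.844 with I-BET151 (n = 4 each).

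MED12, the subunit that bridges the kinase to the module, ranged from 7.73 to 12.3 RPKM with a median of 11.1 in LOUCY, and from 3.76 to 5.72 with a median of 4.58 in JURKAT. The groups did not overlap, and MED12 was higher in LOUCY by 1.02 (SE 0.10, limma adjusted p = 1.69e-07). Its paralogue MED12L was also higher, at 6.44 ± 1.02 against 4.01 ± 0.413 RPKM, by 0.56 (SE 0.10). MED13, which ties the module to core Mediator, was higher by 0.45 (SE 0.10), and its paralogue MED13L differed by 0.07 (SE 0.10, limma adjusted p = 0.513). The module thus had 4 members higher in LOUCY, CCNC lower, and 2 that did not pass. MED12 made up 61.3% ± 4.53 of the MED12 and MED12L sum in LOUCY and 52.9% ± 5.21 in JURKAT, and the ranges of the 2 lines overlapped. MED13 made up 68.8% ± 4.49 of its pair in LOUCY and 62.2% ± 4.42 in JURKAT, again with overlap.

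**Figure D3:**
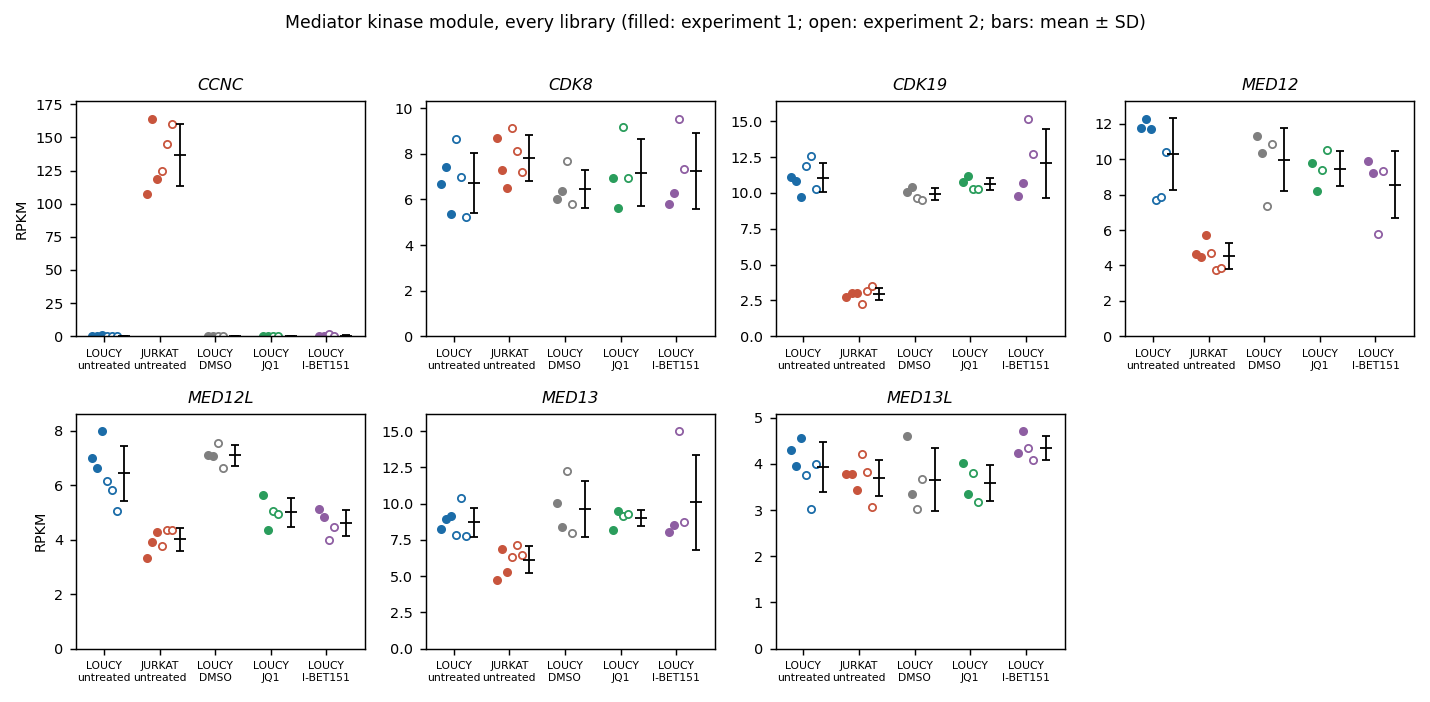
RPKM of the 7 kinase module genes in every library of the 5 groups, with filled points for experiment 1, open points for experiment 2 and bars for mean ± SD (n = 6 untreated, n = 4 treated). CCNC is near 0 in all LOUCY groups, CDK19 and MED12 are lower in JURKAT, and MED12L is lower with each inhibitor than with DMSO.

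Module counts between the lines are read against the 73.1% of all tested genes that passed. In the head module, 5 of 7 members were lower in LOUCY and MED17 was higher. MED11, a small helical head subunit, ranged from 7.70 to 9.72 RPKM with a median of 9.12 in LOUCY, and from 19.7 to 32.2 with a median of 27.2 in JURKAT. The groups did not overlap, and the difference was -1.45 (SE 0.11, limma adjusted p = 7.95e-09). MED20, MED22, MED8 and MED6 were lower by smaller amounts (-0.48 to -0.19), and MED17, the head scaffold, was higher by 0.26 (SE 0.10). In the middle module, 3 members were higher (MED4, MED10 and MED19, by 0.36 to 0.50) and 3 were lower (MED7, MED9 and MED31). MED7, which joins with MED21 in a conserved hinge, ranged from 7.30 to 14.3 RPKM in LOUCY and from 17.9 to 34.7 in JURKAT, without overlap. Its difference was -0.996 (SE 0.15, limma adjusted p = 1.69e-05). The backbone MED14 was higher by 0.31 (SE 0.10). In the tail, 4 of 9 passed, with MED15, a target of activation domains, higher by 0.90 (SE 0.11) and MED29 lower by 0.80 (its difference was -0.80, SE 0.10). MED23 was higher by 0.22 and MED27 differed by -0.42.

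Both SWI/SNF ATPases were higher in LOUCY. SMARCA2 (BRM) ranged from 15.9 to 25.2 RPKM with a median of 17.5 in LOUCY, and from 7.18 to 10.9 with a median of 8.56 in JURKAT. No value was shared between the groups, and the difference was 1.06 (SE 0.12, limma adjusted p = 1.34e-06). SMARCA4 (BRG1) differed by 0.40 (SE 0.09), with 34.8 ± 5.21 RPKM in LOUCY and 26.1 ± 4.5 in JURKAT. SMARCA2 made up 36.1% ± 8.09 of the pair in LOUCY and 25.6% ± 5.9 in JURKAT, with overlapping libraries, so SMARCA4 was the more abundant ATPase in the mean of each line.

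Of the 7 core subunits, 4 were higher in LOUCY and SMARCD3 was lower. SMARCB1, a core subunit that contacts the nucleosome and is a tumour suppressor, ranged from 40.0 to 63.6 RPKM with a median of 57.4 in LOUCY, and from 20.3 to 31.0 with a median of 24.2 in JURKAT. The 2 lines were apart in every library, and SMARCB1 was higher by 1.07 (SE 0.09, limma adjusted p = 4.36e-08). SMARCC2, one of the paired scaffold proteins, ranged from 19.1 to 29.2 RPKM in LOUCY and from 9.44 to 12.4 in JURKAT, and was higher by 1.07 (SE 0.09, limma adjusted p = 3.42e-08). Its paralogue SMARCC1 was higher by 0.21 (SE 0.08), so SMARCC2 made up 40.0% ± 1.68 of the scaffold pair in LOUCY and 26.0% ± 0.987 in JURKAT. The shares of the 2 lines did not overlap (37.7% to 41.9% against 25.0% to 27.8%). SMARCE1 was higher by 0.76 (SE 0.09). Among the SMARCD paralogues, SMARCD1 and SMARCD2 each held 44.4% to 49.7% of their sum in the 2 lines and did not pass, and SMARCD3, at 2.19 ± 0.735 against 3.38 ± 0.875 RPKM, differed by -0.47 (SE 0.15).

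All 5 subunits of the list named shared accessory passed, against 73.1% of all tested genes. The name does not mean that each of them is in every complex form. SS18, known as the fusion partner in synovial sarcoma, ranged from 52.5 to 63.2 RPKM in LOUCY with a median of 58.6, and from 21.1 to 26.6 in JURKAT with a median of 23.5. The lines did not overlap, and SS18 was higher by 1.26 (SE 0.08, limma adjusted p = 6.36e-10). BCL7A, which is recurrently mutated in lymphoma, ranged from 3.52 to 7.68 RPKM in LOUCY and from 8.73 to 11.7 in JURKAT, and its difference was -0.82 (SE 0.12, limma adjusted p = 1.57e-05). The 3 BCL7 paralogues differed in direction, since BCL7B differed by -0.29 (SE 0.12) and BCL7C by 0.67 (SE 0.12). BCL7A made up 25.7% ± 2.92 of their sum in LOUCY and 36.6% ± 4.29 in JURKAT, BCL7B 66.1% ± 2.93 and 60.8% ± 4.08, and BCL7C 8.23% ± 1.51 and 2.58% ± 1.53.

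The subunits that define each complex form are given in turn. The canonical BAF subunits ARID1A and ARID1B both passed upward in LOUCY, at 0.54 (SE 0.07) and 1.009 (SE 0.08), and ARID1B made up 35.9% ± 2.53 of the pair in LOUCY and 27.7% ± 4.46 in JURKAT. The PHD-finger subunits DPF1 and DPF2 did not pass, and DPF2 held 94.9% ± 0.704 of their sum in LOUCY and 95.9% ± 1.04 in JURKAT. Among PBAF subunits, the plant-homeodomain protein PHF10 was higher by 0.70 (SE 0.13), while ARID2, PBRM1 and BRD7 lay between -0.09 and 0.14 and did not pass. BRD9, the bromodomain subunit of non-canonical BAF, ranged from 7.30 to 12.9 RPKM with a median of 9.05 in LOUCY, and from 14.6 to 29.1 with a median of 21.2 in JURKAT. The groups did not overlap, and the difference was -1.06 (SE 0.11, limma adjusted p = 2.48e-07).

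All 4 SMARC-named proteins outside SWI/SNF passed, against the same 73.1%. SMARCA1 and SMARCA5 are the alternative ATPases of ISWI remodellers. SMARCA1 ranged from 0.901 to 2.96 RPKM in LOUCY and from 5.49 to 9.39 in JURKAT, without overlap, and its difference was -1.55 (SE 0.10, limma adjusted p = 8.38e-10). SMARCA5 was higher in LOUCY by 0.64 (SE 0.08), so SMARCA1 made up 3.39% ± 1.23 of the pair in LOUCY and 17.9% ± 2.1 in JURKAT. SMARCAD1, a nucleosome remodeller linked to DNA end resection, was higher by 0.52 (SE 0.15). SMARCAL1, an annealing helicase that protects stalled replication forks, was higher by 0.99 (SE 0.13), at 24.0 ± 5.35 against 11.5 ± 1.79 RPKM.

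The libraries were made by a method that does not mark strand, and 16 members share exon bases with another listed gene, so their values are uncertain. SMARCB1 shares 2923 bases with DERL3, which averaged 1.93 RPKM in LOUCY and 0.386 in JURKAT, far below SMARCB1. SMARCC2 shares 514 bases with MYL6, an abundant myosin light chain gene that was also higher in LOUCY, by 0.97 (1542 against 787.0 RPKM). MED7 is also among the 16. MED31 shares 1227 bases with TXNDC17, whose difference was -1.503. BRD9 shares 182 bases with TRIP13, whose difference was -0.58. The part of these overlaps in the members' values was not tested. CCNC, CDK19, MED12, SS18, SMARCA1 and SMARCAL1 share no exon base with another listed gene.

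Lists of related genes outside the member rule were set beside them in the same fit. Their counts are read against the 73.1% of all tested genes that passed (35.5% higher and 37.5% lower). The polymerase and general factor list, at 69.05%, and the other remodellers, at 73.68%, were close to that share. Of 42 tested subunits of RNA polymerase II and the general transcription factors, 9 were higher in LOUCY and 20 lower, with a median of -0.19. TAF12, a TFIID subunit, was the gene with the smallest adjusted p among those lower, at 13.6 against 65.8 RPKM and a difference of -2.20 (SE 0.08, limma adjusted p = 1.72e-12). Of 38 tested subunits of other remodellers (ISWI, CHD, NuRD, INO80 and related), 18 were higher and 10 lower, with a median of 0.20. CHD1 differed by -1.71 (SE 0.10) and INO80D by 1.18 (SE 0.08). Of 4 tested SWI/SNF genes outside the rule, 3 were higher, led by DPF3 at 11.3 against 1.26 RPKM, a difference of 2.44 (SE 0.12, limma adjusted p = 6.50e-11).

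The vehicle was compared with untreated LOUCY to measure its own effect on these genes. In limma, 0 of 59 members passed, with a background of 0.175% of 11411 tested genes. At an unadjusted p under 0.05 there were 6 members, MED8, MED11, MED17, SMARCD3, SS18 and SMARCA1, and voom on recovered reads also called 0. Within experiment 1 alone (background 0.520%) MED17 was higher with DMSO by 0.58 (SE 0.11, limma adjusted p = 0.0493). Its values there were 16.6 and 14.2 RPKM with DMSO and 10.4, 10.4 and 8.99 untreated, and in experiment 2 the difference was -0.00 (SE 0.23).

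JQ1 and I-BET151 were each compared with DMSO to ask what BET inhibition changed. Both comparisons use the same 4 DMSO libraries, so their values are set side by side and no agreement between them is counted. A pair of genes known to respond to BET inhibitors served as a check in LOUCY. HEXIM1, a repressor of P-TEFb, the elongation kinase, rose from 19.7 RPKM with DMSO to 53.1 with JQ1 and 50.8 with I-BET151, and MYCN fell from 12.4 to 3.19 and 3.97 (limma adjusted p of 4.72e-05 or less in each). Markers of cell types moved too, and their part in the member changes was not tested. Of 5 tested T-lineage genes, 4 fell with each inhibitor, and LCK fell from 177.4 RPKM to 39.7 with JQ1 and 41.8 with I-BET151. Of 4 tested markers of other lineages, 3 fell with each, namely CD79A, MPO and PECAM1. JQ1 changed 8 of 59 members, 2 higher and 6 lower, a share of 13.6% against a background of 26.0% of all 11411 tested genes (10.1% higher and 15.9% lower). I-BET151 also changed 8 of 59, 2 higher and 6 lower, against a background of 26.3% (10.3% higher and 15.9% lower). The median change was -0.06 over the members and -0.01 over all tested genes with JQ1, and 0.00 over both with I-BET151.

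The member counts moved with the libraries included. Without the 3 libraries of steep GC trend, 16 members passed with JQ1 (6 higher and 10 lower, background 36.3% with 15.1% higher and 21.2% lower), among them all 8 named first. With I-BET151, 13 passed (background 29.8%), among them 7 of the 8, the exception being MED31. Removing the GC trend of every library instead gave 16 with JQ1 (6 higher and 10 lower, background 35.9% with 14.9% higher and 20.9% lower). It gave 18 with I-BET151 (6 higher and 12 lower, background 35.9% with 15.7% higher and 20.1% lower). The tail subunit MED24 and the head subunit MED22 were lower past the threshold with each inhibitor under both of these settings, and were singled out after their values were seen. MED24 stood at 17.98, 16.9, 8.94 and 19.8 RPKM in the DMSO libraries, the 8.94 being the library of steep trend. It stood at 10.5, 9.40, 12.9 and 10.4 with JQ1 and at 12.1, 9.996, 9.03 and 11.02 with I-BET151. With all libraries its change was -0.47 (SE 0.19) with JQ1 and -0.50 (SE 0.19) with I-BET151, at limma adjusted p values of 0.0796 and 0.0589.

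Leaving out single libraries moved the JQ1 count from 8 to 2 without DMSO replicate 2 or JQ1 replicate 1 of experiment 1, to 3 without DMSO replicate 2 of experiment 2, to 4 without JQ1 replicate 2 of experiment 1 and to 5 without JQ1 replicate 1 of experiment 2. The I-BET151 count fell to 5 without DMSO replicate 2 of experiment 2 and rose to 12 without DMSO replicate 1 of experiment 2. The shares of all tested genes in these refits are not given here, so the shifts are not read as particular to the members. Within experiment 1 alone, 13 of 58 members passed with JQ1 (background 31.4%) and 6 with I-BET151 (background 25.4%). Within experiment 2 alone, limma called 0 of 59 with either inhibitor, against backgrounds of 3.55% and 4.14%. At an unadjusted p under 0.05 there were 2 members with JQ1 and 8 with I-BET151 in that experiment. No member differed in its change between the experiments in limma (0 of 59 for each inhibitor, background 0.00876% each, smallest adjusted p = 0.999 with JQ1 and 1.00 with I-BET151, 2 members at an unadjusted p under 0.05 in each).

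**Figure D4:**
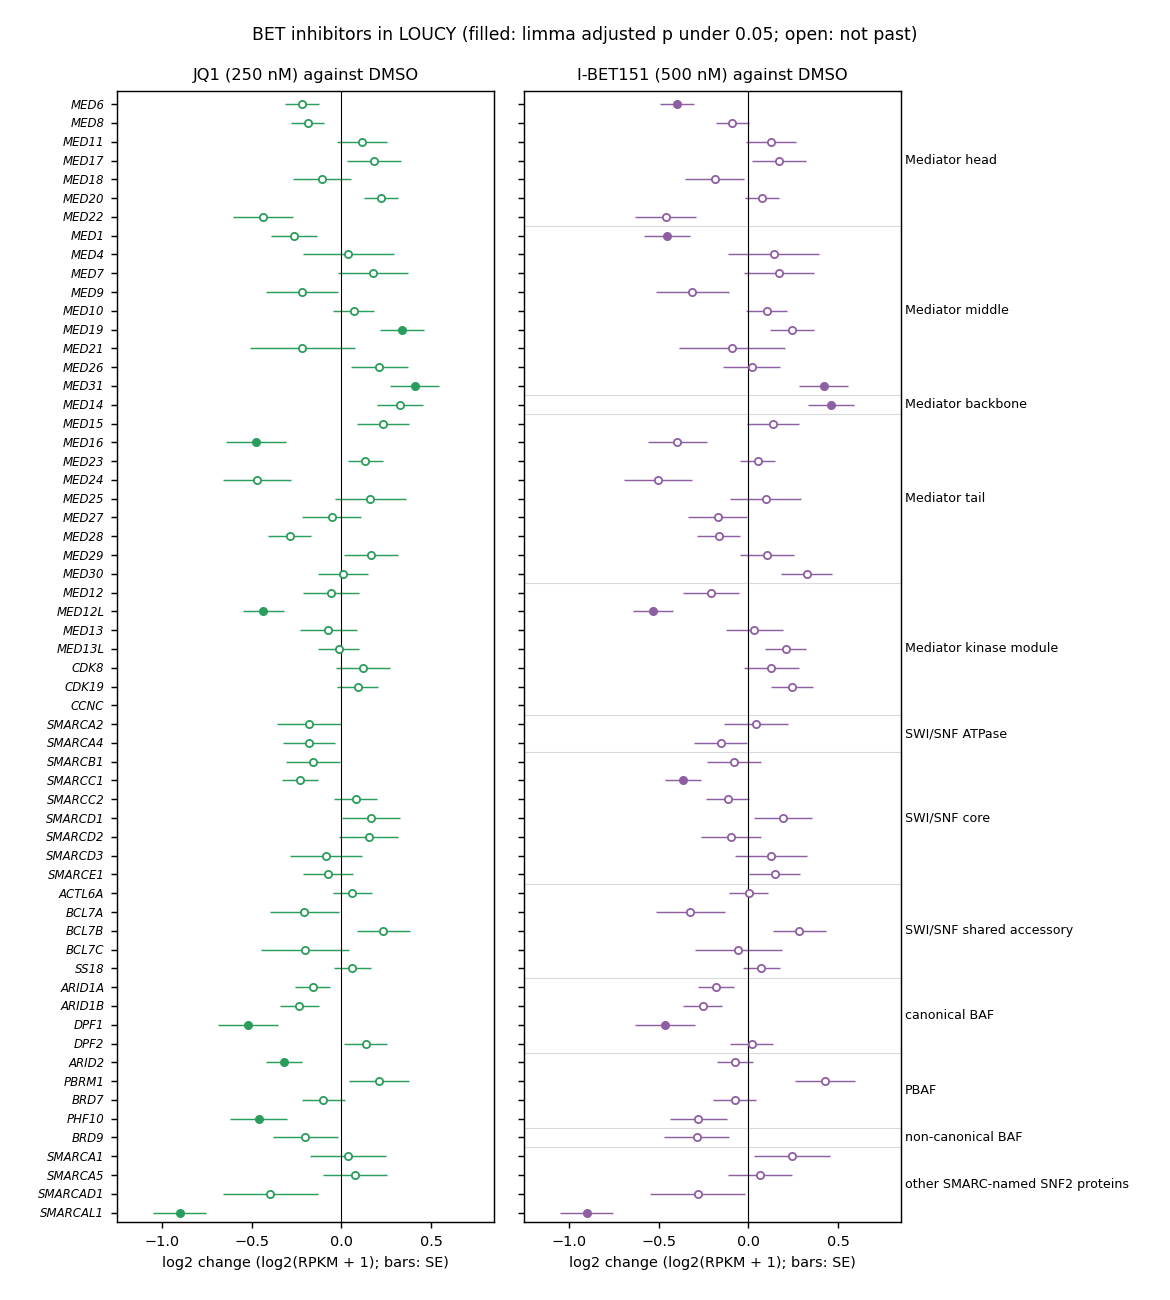
Changes of the members with JQ1 (left) and I-BET151 (right) against DMSO in LOUCY, as differences of log2(RPKM + 1) on the horizontal axes (n = 4 each). Points are estimates and bars their SE, filled where the limma adjusted p was under 0.05. SMARCAL1 has the largest change in each panel, at -0.90, and CCNC has no point because it was below the filter.

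SMARCAL1, the fork-protecting helicase, had the largest change of any member with each inhibitor. Its values were 22.9, 23.0, 19.5 and 23.0 RPKM with DMSO, 11.96, 11.8, 12.8 and 9.15 with JQ1, and 14.2, 12.02, 8.67 and 11.1 with I-BET151. All treated libraries were below all DMSO libraries. SMARCAL1 fell by 0.90 on the log2 scale with JQ1 (SE 0.15, limma adjusted p = 0.000168) and by 0.90 with I-BET151 (SE 0.15, limma adjusted p = 0.000171). Within the experiments, the change was -0.90 (SE 0.11) and -0.91 (SE 0.28) with JQ1, and -0.77 (SE 0.11) and -1.04 (SE 0.28) with I-BET151. The treated LOUCY means, 11.4 and 11.5 RPKM, were near the untreated JURKAT mean of 11.5.

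MED12L, the alternative kinase module bridge, fell with each inhibitor while MED12 did not pass. MED12L stood at 7.10, 7.09, 7.56 and 6.64 RPKM with DMSO, at 5.66, 4.36, 5.04 and 4.95 with JQ1, and at 5.12, 4.85, 4.01 and 4.48 with I-BET151. No treated library reached the lowest DMSO value. The changes were -0.43 (SE 0.11, limma adjusted p = 0.00773) with JQ1 and -0.53 (SE 0.11, limma adjusted p = 0.00183) with I-BET151. MED12 changed by -0.06 and -0.21 (SE 0.16 each), and the difference between the paralogues was not tested. MED12L shares 3634 exon bases with the opposite-strand IGSF10, which averaged 0.155 to 0.241 RPKM over the LOUCY groups. SMARCAL1 and MED12L passed with each inhibitor in 18 of the 19 other settings and missed the threshold in experiment 2 alone.

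DPF1, the PHD-finger subunit first described in neurons, was the least abundant of these genes, with 25 to 63 reads per treated or DMSO library. It stood at 3.99, 4.32, 2.55 and 4.68 RPKM with DMSO, at 1.93, 2.14, 2.23 and 3.25 with JQ1, and at 3.27, 2.96, 1.71 and 2.21 with I-BET151. The groups overlapped, because the DMSO library of steep GC trend held the 2.55. DPF1 fell by 0.52 with JQ1 (SE 0.17, limma adjusted p = 0.0287) and by 0.47 with I-BET151 (SE 0.17, limma adjusted p = 0.0486), and the call was lost in 5 of 18 other settings with JQ1 and in 14 of 18 with I-BET151. DPF1 held 5.64% ± 0.699 of the DPF1 and DPF2 sum with DMSO, 3.36% ± 1.22 with JQ1 and 3.70% ± 0.524 with I-BET151.

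MED31, a small conserved subunit of the middle module, rose with each inhibitor. It stood at 10.1, 7.73, 9.19 and 7.11 RPKM with DMSO, at 12.8, 11.5, 14.1 and 8.58 with JQ1, and at 10.5, 10.98, 12.9 and 12.4 with I-BET151. The I-BET151 libraries were all above the DMSO libraries, while JQ1 replicate 2 of experiment 2 lay among them. The rise was 0.41 (SE 0.14, limma adjusted p = 0.0360) with JQ1 and 0.42 (SE 0.14, limma adjusted p = 0.0308) with I-BET151. The call was lost in 7 of 19 other settings with JQ1 and in 8 of 19 with I-BET151. Without the 3 libraries of steep GC trend, the I-BET151 change was 0.41 (SE 0.15, limma adjusted p = 0.0567). TXNDC17, which shares exon bases with MED31, changed by 0.14 (SE 0.21) and 0.27 (SE 0.21) and did not pass.

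These 4 genes passed in each comparison, and the sequences upstream of their starts are shown as a description only. The comparisons share their DMSO libraries, so a pass in both is not counted as agreement. RefSeq sequences (GRCh38.p14) covered 48 of the 60 members, as windows of 250 bases before to 50 after the start. Printed here, 5′ to 3′ on the strand of the gene, are only the bases that lie before both the RefSeq start and the GENCODE gene. Capitals mark matches, on either strand, to 5 short motifs. The GC box was searched with the letters GGGCGG and the box bound by NF-Y with the letters CCAAT. The E-box was searched with the letters CACGTG and the core bound by ETS factors with the letters CCGGAAG. The last motif, of the TATA box, had the letters TATAAA. Matches to the GC box can overlap each other, as in the run of capitals in MED31.
SMARCAL1, chr2:216412234-216412413, plus strand: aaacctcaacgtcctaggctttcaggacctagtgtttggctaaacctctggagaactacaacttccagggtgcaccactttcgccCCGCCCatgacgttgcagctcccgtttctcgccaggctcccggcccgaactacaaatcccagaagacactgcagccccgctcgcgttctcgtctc
MED12L, chr3:151085414-151085663, plus strand: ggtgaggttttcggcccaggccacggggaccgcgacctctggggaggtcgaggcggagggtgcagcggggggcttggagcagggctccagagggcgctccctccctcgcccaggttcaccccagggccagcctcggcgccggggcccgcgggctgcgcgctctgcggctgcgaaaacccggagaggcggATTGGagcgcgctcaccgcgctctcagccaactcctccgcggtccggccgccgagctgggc
DPF1, chr19:38229715-38229945, minus strand: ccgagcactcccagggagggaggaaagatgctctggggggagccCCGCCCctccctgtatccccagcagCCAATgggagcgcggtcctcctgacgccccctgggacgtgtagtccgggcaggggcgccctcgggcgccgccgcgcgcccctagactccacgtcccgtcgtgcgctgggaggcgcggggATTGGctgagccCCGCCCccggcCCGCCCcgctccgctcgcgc
MED31, chr17:6651635-6651855, minus strand: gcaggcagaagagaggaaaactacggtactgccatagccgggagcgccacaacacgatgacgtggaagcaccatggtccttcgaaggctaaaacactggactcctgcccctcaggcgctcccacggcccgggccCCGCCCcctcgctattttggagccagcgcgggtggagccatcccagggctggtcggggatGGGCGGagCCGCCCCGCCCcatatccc

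The sequences share no single pattern among those searched. MED31 has 4 GC box matches in its 221 printed bases and DPF1 has 3 in 231 with 2 CCAAT matches, while SMARCAL1 has 1 GC box match and MED12L has 1 CCAAT match. MED12L, DPF1 and MED31 are rich in G and C (75.6%, 76.6% and 66.5%), and SMARCAL1 less so (57.8%). The E-box, ETS core and TATAAA letters are in none of the 4 printed stretches, which says only that these letters are not there. The whole MED31 window has a CCGGAAG match at -15 from the RefSeq start, beyond the end of its printed stretch. The DPF1 window has further GGGCGG matches after the RefSeq start. Over the whole windows, GGGCGG was in 33 of the 48 members and in 44.9% of all 35093 RefSeq windows, CCAAT in 18 and 34.6%, CCGGAAG in 9 and 10.3%, CACGTG in 3 and 7.26%, and TATAAA in 2 and 11.5%. The member counts use 1 window per gene, while the 35093 hold every distinct window of each symbol, so the sets are unlike. The median window held 24.5 CG dinucleotides in the members and 14.0 in all, and the part of this in the matches was not tested. A match is a description of letters and not a bound site.

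**Figure D5:**
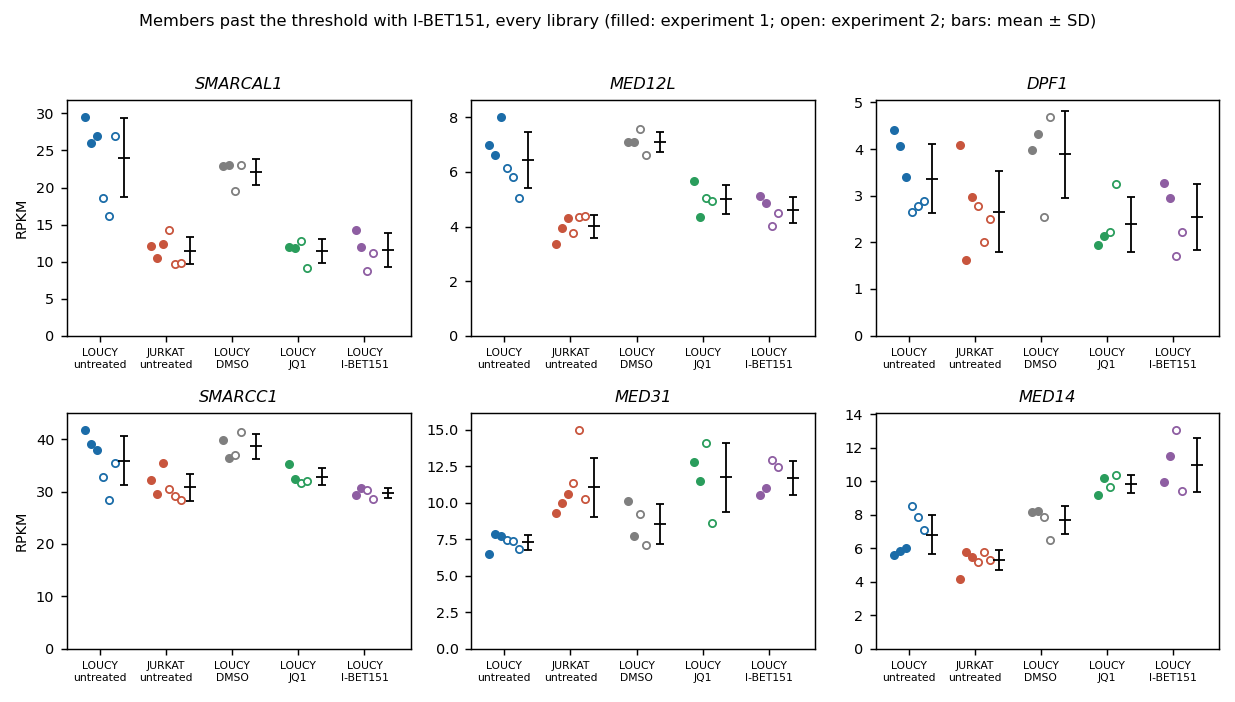
RPKM of 6 members in every library of the 5 groups, with filled points for experiment 1, open points for experiment 2 and bars for mean ± SD (n = 6 untreated, n = 4 treated). SMARCAL1, MED12L and SMARCC1 are lower with I-BET151 than in any DMSO library, MED31 and MED14 are higher than in any, and the DPF1 groups overlap.

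With JQ1, 4 further members passed. MED19, a middle subunit that contacts the repressor REST, stood at 30.2, 32.5, 26.0 and 27.6 RPKM with DMSO and at 40.9, 37.7, 41.0 and 29.4 with JQ1. It rose by 0.34 (SE 0.12, limma adjusted p = 0.0486), with 1 JQ1 library among the DMSO values, and the call was lost in 14 of 19 other settings. MED16, a tail subunit, stood at 14.9, 13.7, 8.32 and 15.8 RPKM with DMSO and at 10.6, 8.43, 8.31 and 8.55 with JQ1. It fell by 0.48 (SE 0.17, limma adjusted p = 0.0418), and the low DMSO value was in the library of steep GC trend. The MED16 call was lost in 10 of 19 other settings. The PBAF subunits ARID2 and PHF10 fell with JQ1, and their groups did not overlap. ARID2 stood at 14.4, 15.1, 16.4 and 15.1 RPKM with DMSO and at 10.8, 12.1, 13.4 and 11.7 with JQ1, a change of -0.32 (SE 0.10, limma adjusted p = 0.0246) that was lost in 5 of 19 other settings. PHF10 stood at 6.86, 8.35, 10.9 and 8.26 RPKM with DMSO and at 5.70, 6.66, 5.35 and 5.92 with JQ1, a change of -0.46 (SE 0.16, limma adjusted p = 0.0384) that was lost in 11 of 19 other settings. With I-BET151 these genes changed by 0.24 (MED19), -0.40 (MED16), -0.08 (ARID2) and -0.28 (PHF10), none past the threshold. PHF10 shares 184 exon bases with the opposite-strand C6orf120, which changed by 0.38 (SE 0.22) with JQ1 and 0.60 (SE 0.22) with I-BET151, neither past the threshold.

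With I-BET151, 4 others passed. The backbone MED14 stood at 8.14, 8.22, 7.87 and 6.46 RPKM with DMSO and at 9.95, 11.5, 13.0 and 9.44 with I-BET151. The groups did not overlap, and MED14 rose by 0.46 (SE 0.13, limma adjusted p = 0.0129). MED14 shares 201 exon bases with the opposite-strand MED14OS, which averaged 0.525 RPKM with DMSO and 1.42 with I-BET151. MED14OS changed by 0.66 (SE 0.24, limma adjusted p = 0.0548), and its part in the MED14 values was not tested. MED1, the subunit that nuclear receptors contact, stood at 9.35, 9.16, 8.31 and 8.73 RPKM with DMSO and at 7.09, 7.87, 4.99 and 5.33 with I-BET151, without overlap. It fell by 0.45 (SE 0.13, limma adjusted p = 0.0132). The head subunit MED6 fell by 0.40 (SE 0.10, limma adjusted p = 0.00451), from 46.6, 40.5, 43.3 and 37.9 RPKM to 37.5, 33.1, 27.1 and 29.5. The scaffold SMARCC1 (BAF155) fell by 0.36 (SE 0.10, limma adjusted p = 0.0110), from 39.8, 36.4, 36.9 and 41.3 RPKM to 29.3, 30.7, 30.4 and 28.7, without overlap. SMARCC1 passed in 18 of 19 other settings, MED1 and MED6 in 17 each and MED14 in 16. With JQ1 these genes changed by 0.33 (MED14), -0.26 (MED1), -0.22 (MED6) and -0.23 (SMARCC1), none past the threshold, although all JQ1 values of MED14 (9.20, 10.2, 9.65 and 10.3 RPKM) were above those of DMSO.

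By module, the counts past the threshold are read against the shares of all tested genes, 26.0% with JQ1 and 26.3% with I-BET151. In limma, 0 of 7 head subunits passed with JQ1 (3 at an unadjusted p under 0.05) and 1 with I-BET151. In the middle module 2 of 9 passed with each. In the tail 1 of 9 passed with JQ1 and 0 with I-BET151 (3 at an unadjusted p under 0.05). In the kinase module 1 of 6 tested genes, MED12L, passed with each. Among the 23 SWI/SNF subunits, 3 fell with JQ1 and 2 with I-BET151, and none of them rose in limma. The ATPases SMARCA2 and SMARCA4 changed by -0.18 each with JQ1, and by 0.04 and -0.15 with I-BET151, none past the threshold. The share of SMARCA2 in that pair was 38.7% ± 7.61 with DMSO, 38.5% ± 2.59 with JQ1 and 42.1% ± 14.2 with I-BET151, where the library of steep GC trend reached 63.2%.

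Genes outside the rule are given next, with counts read against the shares of all tested genes. These were 26.0% with JQ1 (10.1% higher and 15.9% lower) and 26.3% with I-BET151 (10.3% higher and 15.9% lower). Of the 42 tested polymerase and general factor genes, 6 rose and 0 fell with JQ1, and 4 rose and 1 fell with I-BET151. TAF12 had the smallest adjusted p in each, rising from 15.4 RPKM with DMSO to 26.9 with JQ1 (0.77, SE 0.11) and to 28.1 with I-BET151 (0.83, SE 0.11), and GTF2H1 changed by -0.29 (SE 0.09) with I-BET151. Of the 38 tested other remodeller genes, 0 rose and 1 fell with JQ1 (MTA3, -0.66, SE 0.11), and 1 rose and 7 fell with I-BET151. INO80C rose by 0.60 (SE 0.11) and CHD3 fell by 0.68 (SE 0.13) with I-BET151. Of 4 tested SWI/SNF genes outside the rule, 2 fell with JQ1 and 3 with I-BET151. DPF3, a paralogue of DPF1, fell from 11.7 RPKM with DMSO to 5.15 with JQ1 and 5.94 with I-BET151 (log2 changes of -1.05 and -0.87, SE 0.13 each).

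The inhibitors differ in chemical scaffold and were used at different concentrations, so the test of one against the other is not a comparison at matched dose. In limma, 0 of 59 members differed between JQ1 and I-BET151, with a background of 0% of the 11411 tested genes. At an unadjusted p under 0.05 there were 2 members, MED30 and ARID2, and voom on recovered reads called 0. ARID2 was lower with JQ1 than with I-BET151 by 0.25 (its difference was -0.25, SE 0.10, limma adjusted p = 0.964). For SMARCAL1 the difference was 0.00 and for MED12L 0.10, with SE of 0.15 and 0.11. These differences missed the threshold, which does not show that the compounds acted alike.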

How the data were processed

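Polyadenylated RNA of the 24 libraries was made into cDNA by Smart-seq2 and tagmented with Nextera XT, per the labels' protocols, and neither step marks the strand. The authors deposited RPKM values for 15862 genes. The submitters' processing notes name STAR 2.5.1b, Subread 1.4.5-p1 with featureCounts, edgeR 3.10.5 and the build hg38. Which annotation and gene lengths were used, and how multi-mapping reads were treated, is not given in the sources used. RPKM steps gave whole reads in 100% of genes within 0.01 reads, which set the depth of each library.

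Values were analysed as log2(RPKM + 1), which understates changes of low genes. A gene entered a fit when 4 or more of its libraries reached 1 RPKM. limma 3.58.1 in R 4.3.3 fitted group and experiment with a mean-variance trend, and two-sided p-values were adjusted by Benjamini-Hochberg over all genes tested. The lines were compared over 12 libraries, and the other groups in a fit of 18 LOUCY libraries. The labels do not say whether replicates were separate cultures, so p-values measure the spread between libraries.

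Members and gene lists were chosen with earlier results of these data known. Members past the threshold are named where there are 12 or fewer, and otherwise the 6 largest rises and 6 largest falls, beside paralogue pairs and 1 gene per direction of each outside list. Positions are from GENCODE v29 and upstream sequences and gene order from RefSeq GRCh38.p14.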

Additional observations from a re-analysis of the deposited data

Results flagged for a closer look

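For each gene, the highest and lowest library of each group was checked for its distance from the others with Dixon's 95% criterion. Over 37 genes and 185 groups of values, 15 values stood apart. Chance alone flags about 1 group in 20. Of the 15 values, 10 came from replicate 1 of experiment 2 with DMSO or I-BET151, which have a steep GC trend. The part of that trend in these values was not tested.

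With DMSO, that library was the lowest for ARID1A (20.3 RPKM, nearest other 24.0), DPF2 (51.1 against 68.1) and SMARCAL1 (19.5 against 22.9). It was the highest for SMARCA5 (84.1 RPKM, nearest other 49.9) and SS18 (80.3 against 65.0). With I-BET151, it was the lowest for DPF2 (48.1 RPKM, nearest other 68.8), MED11 (5.86 against 8.49) and MED12 (5.78 against 9.23). It was the highest for MED13 (15.0 RPKM, nearest other 8.74) and SMARCA2 (36.9 against 19.5).

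With JQ1, replicate 1 of experiment 1 was the highest for BCL7B (21.7 RPKM, nearest other 16.6) and MED16 (10.6 against 8.55), and replicate 2 of experiment 1 the highest for SMARCA5 (69.3 against 55.8). In untreated JURKAT, MED14 was lowest in replicate 1 of experiment 1 (4.18 RPKM, nearest other 5.18), and MED31 was highest in replicate 2 of experiment 2 (14.9 against 11.3).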

How the results depend on the processing

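The 12 members named between the lines passed under every other setting tried, and no named member changed sign under any setting. The count of 42 members between the lines became 27 in experiment 2 alone and ranged from 39 to 42 with single libraries left out. The count of 0 for DMSO became 1 in experiment 1 alone (background 0.520%). With JQ1, the count of 8 became 5 with no filter on low values, 13 and 0 in experiments 1 and 2 alone, 16 without the 3 libraries of steep GC trend, 16 with the GC trend removed, and 2 to 7 with single libraries left out. With I-BET151, the count of 8 became 0 in experiment 2 alone, 13 without those 3 libraries, 18 with the GC trend removed, and 5 to 12 with single libraries left out. Experiment-only fits hold fewer samples, and the cause of the other shifts was not tested. The direction split with I-BET151 was 4 higher and 5 lower after quantile normalization. Removing the GC trend and voom on recovered reads were settings chosen after seeing the data. Correlations of same-numbered libraries were -0.54 to 0.68. Where a group had 2 libraries in an experiment, their deviations from its mean are equal and opposite. The correlations therefore cannot decide whether the replicate numbers of the labels pair the libraries. A replicate block gave 37, 0, 8, 9 and 0 members in the 5 comparisons. Except where stated, the shares of all tested genes under these settings are not given, so shifts in count are not read as particular to the members. The planned count tools (edgeR and DESeq2) were not run, because the deposited unit is RPKM. Depth limits CCNC, whose 0 to 18 reads per LOUCY library left it untested there.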
